A study of Homo sapiens with 6 samples.

Results

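DDIT4, NDRG1 and 8 regulators of the mTOR pathway (SESN1, SESN2, SESN3, TSC1, TSC2, DEPTOR, SGK1 and MTOR) are described here across 6 RNA sequencing libraries. They were picked by name from the 33542 genes of the deposited count table, with their values in the comparison below already known, so their differences between groups are given as a description, without a test. All 10 were in the table and all 10 passed the filter on low counts, among 18685 genes tested. The cells were T24, a human urinary bladder carcinoma line, transfected with small interfering RNA, either one that targets TRAIP (siTRAIP, 3 libraries) or the one named siNC (3 libraries), taken as the control. TRAIP encodes a ubiquitin ligase with a RING domain, known for unloading the replicative helicase. The study asked what lies downstream of TRAIP in bladder cancer. The labels mark the TRAIP RNA as siTR2, 1 reagent for all siTRAIP libraries, give no time after transfection, and leave unsaid whether replicates were grown separately, so every p-value here measures the spread of these libraries, which may be technical.

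mTOR is a protein kinase that sets cell growth by nutrient and growth factor supply. In complex 1 it drives translation through S6 kinase and the 4E-BP proteins, and in complex 2 it activates AKT and SGK1. The TSC complex (TSC1, TSC2 and TBC1D7) holds complex 1 back by switching off the GTPase RHEB, and DDIT4, also called REDD1, is a stress-induced protein that acts through TSC to inhibit complex 1. The sestrins carry leucine and stress signals to the same kinase through GATOR2. DEPTOR binds mTOR and inhibits it. SGK1, a kinase downstream of complex 2, phosphorylates NDRG1, whose gene is itself induced by hypoxia and repressed by MYC.

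The values below are CPM, counts divided by library depth after scaling by the trimmed mean of M values (TMM), and comparable between libraries for a given gene. Levels are compared between genes in RPKM, which divides by exonic length as well as by depth. Total gene counts ran from 39111793 to 70439496 per library. TRAIP mRNA fell from 27.8 ± 1.04 to 12.95 ± 1.61 CPM (SD, n = 3 each), or -1.11 on the log2 scale (SE 0.07, edgeR adjusted p = 6.74e-10). Epithelial keratins marked the cells: KRT7, KRT8 and KRT18 stood at 1310, 1690 and 497 CPM in siNC and at 1150, 1600 and 514 CPM in siTRAIP. KRT7 fell (edgeR adjusted p = 0.00375), the summed epithelial list ran from 3500 to 3560 CPM in siNC and from 3190 to 3490 CPM in siTRAIP, and the part of this in the results was not tested. Of the uroplakins, UPK2 reached 57 counts, while UPK1A and UPK3A, the cadherin CDH1 and the basal keratin KRT5 had at most 7 counts in any library. No leukocyte or endothelial marker listed passed the filter. Of the fibroblast list COL1A1 and PDGFRB passed, and its summed level was 1.19 to 1.34 CPM in siNC and 1.03 to 4.92 CPM in siTRAIP.

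DDIT4 and NDRG1 stood about 1.5 times higher in the siTRAIP libraries, while TSC1, SGK1 and the very low SESN3 stood lower and the other 5 genes had overlapping groups. In such bulk RNA, fewer cells of a kind and less RNA per cell cannot be told apart. DDIT4 and NDRG1 lay above all siNC libraries in all 3 siTRAIP libraries, and TSC1, SGK1 and SESN3 lay below them. Groups did not overlap for 29.1% of all tested genes, with siTRAIP higher for 14.8% and lower for 14.4%. Since the 10 genes were chosen from this contrast, nothing is read from their 5 separated pairs of groups. The median log2 fold change of the 10 genes was -0.03, beside -0.002 for all tested genes. In the edgeR fit 12.8% of the 18685 tested genes passed an adjusted p of 0.05 (Benjamini-Hochberg), 7.47% rising and 5.34% falling. Without scaling factors 838 genes rose and 2050 fell, against 1396 and 997 with them, so small differences depend on the scaling.

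**Figure D1:**
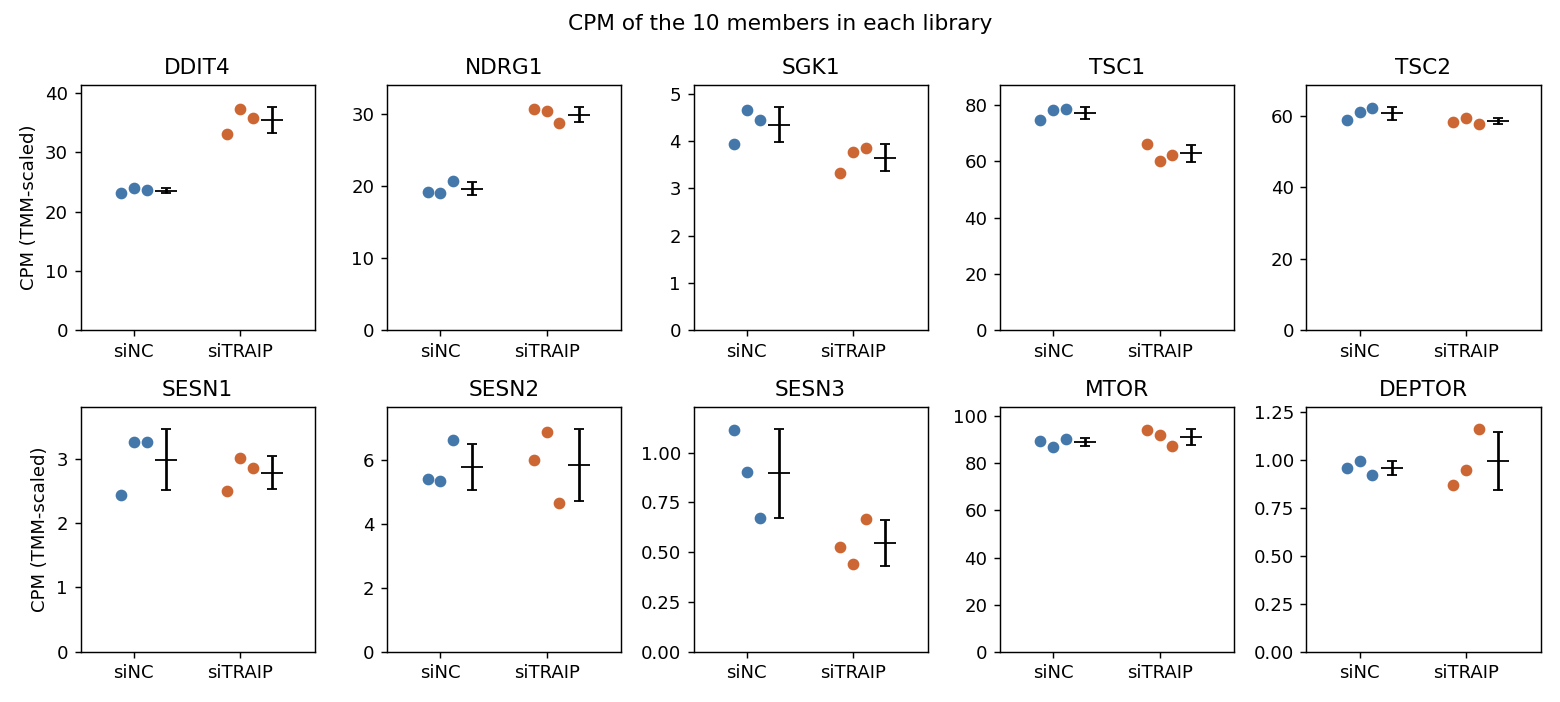
CPM of the 10 genes (vertical axis, TMM-scaled CPM from 0, a scale for each gene) in each siNC and siTRAIP library (points, replicates 1 to 3 from left to right), with the mean and SD of each group beside them in black. DDIT4 and NDRG1 lie higher in every siTRAIP library, TSC1 lies lower, and SESN3 is separated by a gap smaller than the width of a point.

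DDIT4 lies on chromosome 10, 72273920 to 72276036, plus strand (GRCh38), with 2058 exonic bases. The 300 bases around its RefSeq start site (build GRCh38.p14, chr10:72273674-72273973, plus strand, 250 before the start and 50 after it) are shown because DDIT4 was the most abundant of the 10 genes per length and among the highest in fold. Those of TSC1 (chr9:132944567-132944866, minus strand) and of SESN2 (chr1:28259268-28259567, plus strand) follow for comparison, the first as the well-counted gene that stood lower and the second as another stress-induced inhibitor of complex 1, whose groups overlapped. Capitals mark ACGTG on either strand, the core of the hypoxia response element.
DDIT4: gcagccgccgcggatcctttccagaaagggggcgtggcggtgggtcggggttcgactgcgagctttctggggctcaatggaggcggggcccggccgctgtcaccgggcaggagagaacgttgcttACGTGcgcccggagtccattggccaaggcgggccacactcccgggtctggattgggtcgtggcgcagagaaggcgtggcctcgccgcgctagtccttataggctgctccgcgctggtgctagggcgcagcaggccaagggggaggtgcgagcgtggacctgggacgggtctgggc
TSC1: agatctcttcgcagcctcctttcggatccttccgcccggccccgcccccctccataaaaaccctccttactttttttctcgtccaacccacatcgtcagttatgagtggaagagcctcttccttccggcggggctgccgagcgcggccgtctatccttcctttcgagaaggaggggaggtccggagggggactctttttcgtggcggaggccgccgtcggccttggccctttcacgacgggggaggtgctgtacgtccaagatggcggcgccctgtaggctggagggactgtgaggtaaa
SESN2: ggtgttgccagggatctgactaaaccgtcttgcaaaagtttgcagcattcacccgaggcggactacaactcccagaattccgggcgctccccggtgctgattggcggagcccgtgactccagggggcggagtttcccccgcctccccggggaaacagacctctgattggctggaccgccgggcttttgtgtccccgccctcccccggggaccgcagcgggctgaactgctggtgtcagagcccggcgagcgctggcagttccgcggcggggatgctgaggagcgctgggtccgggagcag
The word ACGTG has 1 match in the DDIT4 window, its first base at position -125 from the start, and not in the TSC1 or SESN2 window. It is found in 21.4% of 35116 RefSeq windows of this length when both strands are searched, so its presence is a description and not a mapped site. Of the 10 genes, 8 had windows in the table, 13 windows in all. NDRG1 and DEPTOR had no window, so their promoters were not searched for any word. A TSC2 window holds CACGTG, the E-box hexamer bound by MYC and MAX, which contains ACGTG on both strands and is in 7.26% of windows. The same TSC2 window holds TGATGNAA (3.62% of windows), a form of the ATF4 element. A window of SGK1 also holds ACGTG. The FOXO word GTAAACA (3.42% of windows) was in none of the 13.

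DDIT4 stood at 23.09, 23.94 and 23.57 CPM in siNC replicates 1 to 3 and at 33.13, 37.41 and 35.88 CPM in siTRAIP replicates 1 to 3. All siTRAIP libraries lay well above siNC, and the spread within each group was small beside the gap. The siNC mean of 23.5 ± 0.43 CPM compares with 35.5 ± 2.17 CPM after siTRAIP (SD, n = 3 each), 1.51 times as much, and a log2 fold change of 0.59 (SE 0.06), and 95.4% of tested genes had a log2 fold change no larger in size. Beside MTOR in the same library, a ratio that needs no scaling factor, DDIT4 stood at 1.52, 1.62 and 1.54 RPKM per RPKM in siNC and at 2.07, 2.39 and 2.42 in siTRAIP. DDIT4 alone already separated the groups, so this ratio gives no further support for a higher DDIT4.

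The DDIT4 value does not separate strands. An antisense gene listed as RP11-442H21.2 (chromosome 10, 72274915 to 72275980, minus strand), which matches DDIT4-AS1 of GENCODE v29 by its coordinates, has all of its 847 exonic bases within the exons of DDIT4, 41.2% of the DDIT4 exonic bases. Its counts were 1112, 1188 and 1181 in siNC and 1042, 1493 and 2111 in siTRAIP, or 82.8% to 89.6% of the DDIT4 count in each library. The labels name a stranded library kit. Across the table, 519 gene pairs held an inner gene of at most 3000 exonic bases wholly within the exons of a gene on the other strand. In 519 of these pairs the inner gene had no more counts than the outer gene in every library. Any pair whose inner gene had no counts meets this by construction, and such pairs were not left out. The pattern is that left by counting without regard to strand and giving a read to each gene it overlaps. Transcripts of DDIT4 and its antisense gene therefore cannot be told apart here. The DDIT4 counts in excess of the antisense gene, which under such counting come from the remaining exonic bases, stood at 3.69, 2.49 and 3.78 CPM in siNC and at 5.69, 4.59 and 5.26 CPM in siTRAIP. The excess was again higher in all siTRAIP libraries, by a ratio of means of 1.56.

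NDRG1 encodes a cytoplasmic protein of the N-myc downstream regulated family, described as a metastasis suppressor. It lies on chromosome 8, 133237171 to 133302022, minus strand, with 9823 exonic bases, none of which another GENCODE v29 gene shares. NDRG1 stood at 19.13, 19.05 and 20.6 CPM in siNC and at 30.6, 30.31 and 28.69 CPM in siTRAIP. The replicates of each group lay close together and the groups were well apart. The siNC mean was 19.6 ± 0.88 CPM and the siTRAIP mean 29.9 ± 1.03 CPM (SD, n = 3 each), 1.52 times as much, with a log2 fold change of 0.61 (SE 0.06). The ratio of DDIT4 to NDRG1 within a library hardly differed between groups, 5.74 ± 0.27 in siNC and 5.68 ± 0.442 in siTRAIP (SD, n = 3 each, in RPKM). Both genes moved by about the same factor.

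SGK1, the kinase that phosphorylates NDRG1, went the other way. It stood at 3.941, 4.659 and 4.456 CPM in siNC and at 3.318, 3.78 and 3.858 CPM in siTRAIP, a log2 fold change of -0.24 (SE 0.12). The groups were separated by less than the counting error, since the 95% Poisson intervals of siNC replicate 1 (3.44 to 4.49 CPM) and siTRAIP replicate 3 (3.41 to 4.35 CPM) nearly coincide. Within a library the ratio of NDRG1 to SGK1 in RPKM was 4.94, 4.16 and 4.7 in siNC and 9.38, 8.16 and 7.56 in siTRAIP. No library of either group reached the range of the other in this ratio. NDRG1 alone already separated the groups, so the ratio gives no further support for a lower SGK1. The Poisson intervals cover counting error only. They may be too narrow, since 70.2% of counts from 1 to 10 were even, against 50.8% of those above 1000.

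In the TSC complex, TSC1 was lower and TSC2 was not clearly so. TSC1, which encodes hamartin, the subunit that stabilises the complex, lies on chromosome 9, 132891348 to 132944633, minus strand, and stood at 74.7, 78.28 and 78.45 CPM in siNC and at 66, 60.16 and 62.39 CPM in siTRAIP. All siTRAIP libraries lay clearly below siNC, and the log2 fold change was -0.30 (SE 0.05), a fold of 0.814. TSC2, which encodes tuberin, the subunit that acts on RHEB, ranged from 58.73 to 62.18 CPM in siNC and from 57.74 to 59.39 CPM in siTRAIP, with overlapping groups and a log2 fold change of -0.05 (SE 0.05). TSC2 stood at -0.11 without scaling factors. The ratio of TSC1 to TSC2 in RPKM was 1.43 ± 0.0124 in siNC and 1.21 ± 0.0683 in siTRAIP (SD, n = 3 each), and no siTRAIP library reached the siNC range. TSC1 alone already separated the groups, so this ratio gives no further support for a lower TSC1. Of the TSC1 exonic bases 0.706% are shared with another gene, so strand has little bearing on this value. The TSC1 transcript also holds 5 sites of a pair of short words, ACAGTCT and CAGTCTA, whose bearers had a median log2 fold change of -0.01 across genes, and their part in the TSC1 value was not tested.

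TBC1D7, the third subunit, is not among the 10 genes and was tested within the fit over all genes, though its list, too, was drawn up with earlier results known. It fell from 9.80 ± 0.387 to 7.68 ± 0.596 CPM (SD, n = 3 each), or -0.35 on the log2 scale (SE 0.09, edgeR adjusted p = 0.00768), and its groups did not overlap. The call was narrowly lost with limma on log2(RPKM + 0.1), at an adjusted p of 0.0503, and 15.3% of its exonic bases are shared with other genes, PHACTR1 on the opposite strand and AL008729.1 on the same strand. RHEB, the GTPase that TSC switches off, differed by 0.04 on the log2 scale (SE 0.08, edgeR adjusted p = 0.819), which turned negative without scaling factors (-0.02).

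The sestrins gave no common direction. SESN2 stood at 5.405, 5.327 and 6.6 CPM in siNC and at 5.978, 6.879 and 4.641 CPM in siTRAIP. The siTRAIP libraries held both the highest and the lowest value, and the log2 fold change of -0.004 (SE 0.13) became 0.16 without siTRAIP replicate 3 and -0.15 without siTRAIP replicate 2. SESN1 ranged from 2.441 to 3.268 CPM in siNC and from 2.502 to 3.011 CPM in siTRAIP, with a log2 fold change of -0.09 (SE 0.14) that became -0.22 without siNC replicate 1, its lowest siNC library. SESN3 was barely detected, at 64, 50 and 40 counts in siNC and 20, 20 and 46 in siTRAIP. In CPM these were 1.116, 0.9029 and 0.6701 against 0.5267, 0.4396 and 0.6672, so the groups did not overlap by a margin far below counting error. The SESN3 log2 fold change of -0.69 (SE 0.28) ran from -0.89 to -0.50 with a library left out and was -0.31 on log2(RPKM + 0.1).

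The kinase itself and its bound inhibitor showed no separated groups. MTOR (chromosome 1, 11106535 to 11262507, minus strand) ranged from 87.05 to 90.27 CPM in siNC and from 87.37 to 94.15 CPM in siTRAIP, a log2 fold change of 0.03 (SE 0.04) that turned to -0.03 without scaling factors. DEPTOR had 55 counts in each siNC library and 33, 43 and 80 in siTRAIP, which is 0.921 to 0.993 CPM against 0.869 to 1.16 CPM. Its log2 fold change of 0.07 (SE 0.22) turned to -0.07 without siTRAIP replicate 3. Counts this low leave the direction of DEPTOR undecided.

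Per exonic length the 10 genes differed widely in siNC. DDIT4 was the highest at 11.7 ± 0.164 RPKM, followed by TSC1 (7.94 ± 0.214), MTOR (7.49 ± 0.208) and TSC2 (5.56 ± 0.173). NDRG1 (2.04 ± 0.106 RPKM) and SESN2 (1.71 ± 0.223 RPKM) came next and were the only neighbours in the siNC order whose libraries overlapped. SESN1 (0.596 ± 0.0939 RPKM), SGK1 (0.444 ± 0.0359 RPKM), DEPTOR (0.373 ± 0.0108 RPKM) and SESN3 (0.0865 ± 0.0214 RPKM) closed the order (SD, n = 3 each). In siTRAIP the order differed at neighbouring pairs only: MTOR (7.36 ± 0.267 RPKM) stood above TSC1 (6.21 ± 0.24 RPKM) with no overlap, and DEPTOR (0.37 ± 0.0571 RPKM) stood above SGK1 (0.358 ± 0.0308 RPKM) with overlapping libraries. DDIT4 lay at the 80.9th percentile of tested genes in siNC and SESN3 at the 3.94th. The DDIT4 level includes any antisense reads. The exonic length covers all annotated exons of a gene, 9992 bases for SGK1 and 5121 for SESN1, so the order depends on the annotation. In siNC SGK1 stood above SESN1 in CPM (4.35 against 2.99), though below it in RPKM.

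**Figure D2:**
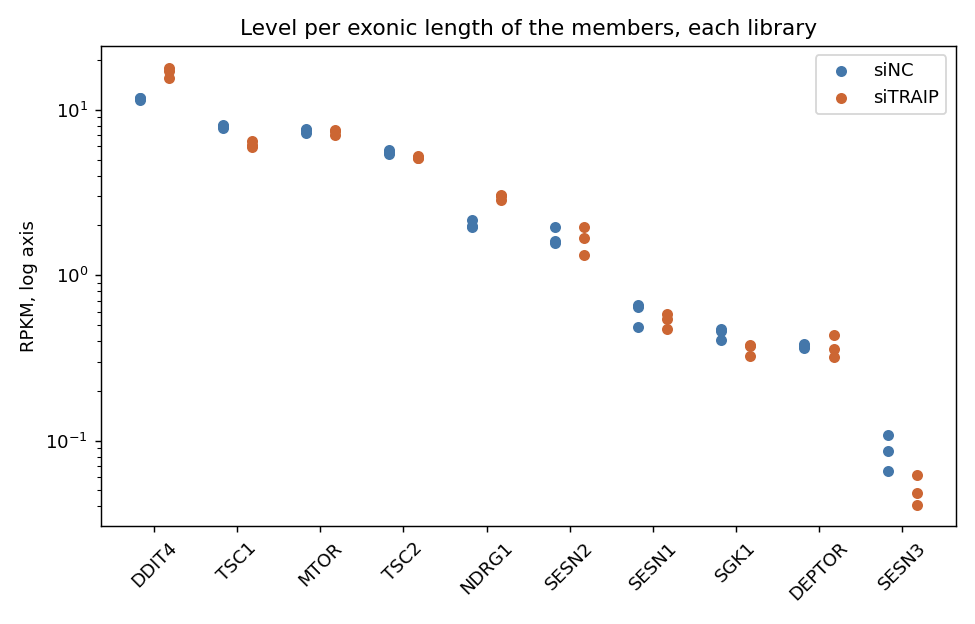
RPKM of each of the 10 genes (horizontal axis, ordered by their siNC mean) in the siNC and siTRAIP libraries (points), on a log axis. TSC1 and MTOR change places between the groups, DDIT4 stays highest and SESN3 lowest.

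The rest of the pathway was read from lists of 83 other genes named by role, of which 81 were tested. Of these, 3 rose and 9 fell at an edgeR adjusted p of 0.05, or 14.8% in either direction, with a median log2 fold change of -0.01. Over all tested genes 12.8% were called in either direction, 7.47% rising and 5.34% falling. The pooled share was near that of all genes, while the calls in the lists were mostly falls. With limma on log2(RPKM + 0.1) or log2(RPKM + 1), 5 of the 81 were called and all of them were lower. Falls outnumbered rises over all 18685 genes there as well, 1059 to 461 and 1069 to 450. Without siTRAIP replicate 3 the count was 16, and without siNC replicate 2 or siTRAIP replicate 1 it was 8. In the same order, these runs called 2622 of 19086, 1619 of 19062 and 1798 of 19067 tested genes.

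Of the direct partners in the complexes, none was near the threshold. RPTOR, the scaffold of complex 1, differed by -0.06 on the log2 scale (SE 0.05, edgeR adjusted p = 0.545), and RICTOR, that of complex 2, went from 19.2 ± 0.91 to 19.2 ± 0.65 CPM (SD, n = 3 each). MLST8, shared by both complexes, differed by -0.07 (SE 0.07, edgeR adjusted p = 0.572). Among amino acid sensing genes, BMT2, also called SAMTOR, the sensor of S-adenosylmethionine, fell from 8.71 to 7.02 CPM, at an edgeR adjusted p of 0.0486. Its call was lost when siNC replicate 2 or 3 or siTRAIP replicate 1 or 2 was left out (adjusted p from 0.0609 to 0.334), with DESeq2 (0.0893), with non-robust fitting (0.0663) and on the RPKM scales (0.109 and 0.115). Both folliculin partners fell, FNIP1 by 0.27 (SE 0.06, edgeR adjusted p = 0.00508) and FNIP2 by 0.43 (SE 0.11, edgeR adjusted p = 0.00809) on the log2 scale. FNIP2 missed the threshold when siNC replicate 1 (adjusted p = 0.0808) or siTRAIP replicate 1 (0.0578) was left out, and on the RPKM scales (0.105 and 0.102).

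On the growth factor side, AKT1, the kinase that phosphorylates TSC2, rose from 76.6 ± 2.58 to 88.1 ± 3.26 CPM (SD, n = 3 each), or 0.20 on the log2 scale (SE 0.05, edgeR adjusted p = 0.00364). Its adjusted p was 0.152 with limma on either RPKM scale and 0.0506 without siNC replicate 2. PDPK1, the kinase that activates both AKT and SGK1, fell from 37.8 to 31.9 CPM (log2 fold change -0.25, edgeR adjusted p = 0.00319), though 23.7% of its exonic bases are shared with other genes. INPP4B, a phosphoinositide phosphatase, fell by 0.33 on the log2 scale (edgeR adjusted p = 0.00581), and PIK3CD, a catalytic subunit of PI3-kinase, fell by 0.18 (edgeR adjusted p = 0.0244). The PIK3CD call was lost without any 1 of the siNC libraries or siTRAIP replicate 1 (adjusted p from 0.0649 to 0.0995). PRKAA2, a catalytic subunit of AMPK, rose by a log2 fold change of 0.27 (edgeR adjusted p = 0.0321), a call lost on leaving out any 1 library (0.0569 to 0.166), with DESeq2 (0.0714), without scaling factors (0.0942) and on the RPKM scales (0.223 and 0.208). On those scales the INPP4B call was lost as well (0.0736 and 0.0658), and that of EIF4EBP1, named next, on log2(RPKM + 1) (0.0515). Among the outputs, EIF4EBP1, which encodes the translation repressor 4E-BP1, fell from 80.3 to 68.1 CPM (edgeR adjusted p = 0.00495), and LPIN1, a phosphatidate phosphatase controlled by complex 1, fell from 31.8 to 25.6 CPM (edgeR adjusted p = 4.85e-04).

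**Figure D3:**
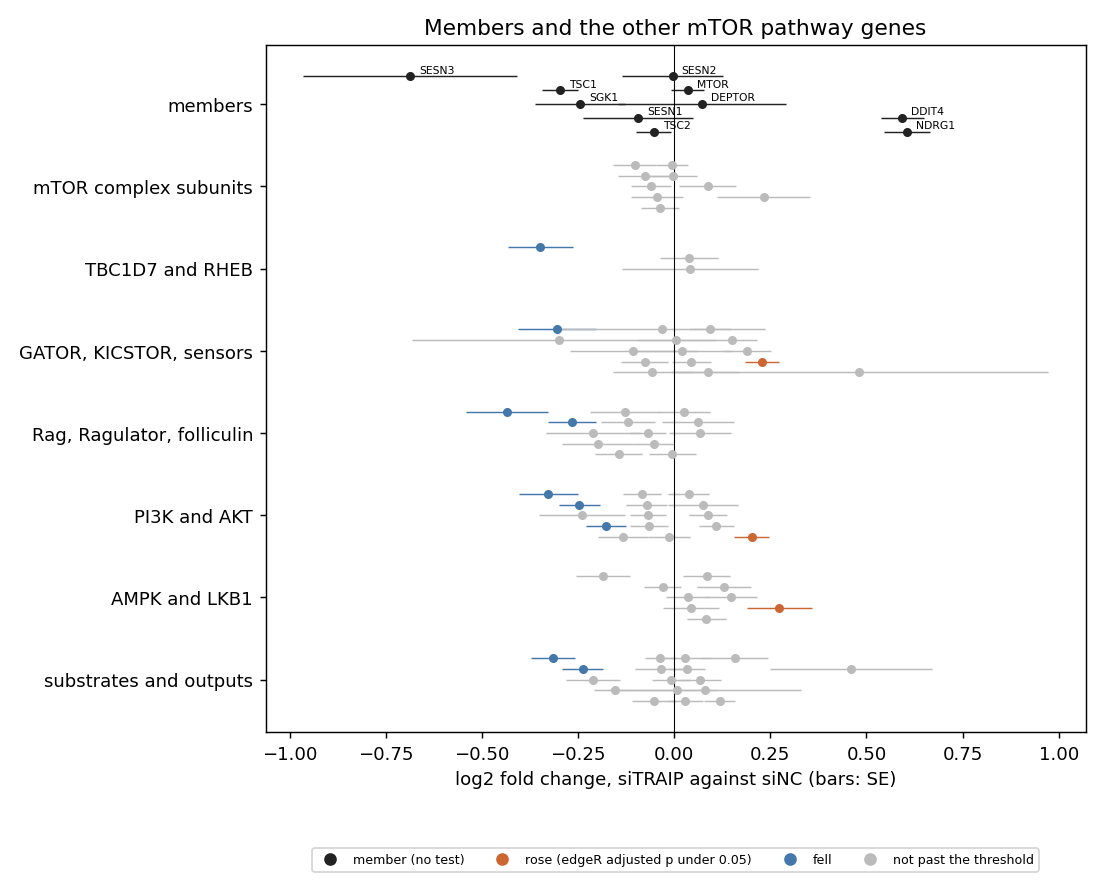
Log2 fold change of siTRAIP against siNC (horizontal axis, bars the SE) for the 10 genes, labelled, and for the 81 other tested pathway genes by role, coloured by call at an edgeR adjusted p of 0.05. DDIT4 and NDRG1 stand at 0.59 and 0.61, and 3 of the 81 others rose while 9 fell.

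DDIT4 and NDRG1 are induced by several stress and hormone programmes, and lists of other genes of those programmes were read in the same fit. Of 18 tested hypoxia-induced genes, 12 had a positive log2 fold change, as had 49.6% of all tested genes. The groups did not overlap for 5 of the 18 that were higher and 2 that were lower. Over all tested genes these shares were 14.8% and 14.4%. Passing the threshold was 1 of the 18 (5.56%, against 12.8% of all genes): BNIP3, a mitophagy receptor, fell from 70.7 to 61.8 CPM (edgeR adjusted p = 0.00767). BNIP3 has 39 named pseudogenes, so its counts may be shared. HILPDA, a lipid droplet protein gene named here after its value was seen as the highest of the list, went from 2.09 to 2.77 CPM (log2 fold change 0.40, SE 0.14, edgeR adjusted p = 0.0657). The list's median log2 fold change was 0.04, against -0.002 for all tested genes. Without siTRAIP replicate 3 the list held 3 called genes, in a run that called 2622 of 19086 tested genes.

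Among 13 ATF4-induced genes, the programme of amino acid shortage, 4 fell (30.8%, where 5.34% of all tested genes fell) and the median was -0.04. SLC7A11, the cystine transporter, fell from 113 ± 5.3 to 87.3 ± 1.91 CPM (SD, n = 3 each; log2 fold change -0.38, edgeR adjusted p = 2.86e-06), and its partner SLC3A2 fell from 169 to 146 CPM (edgeR adjusted p = 0.00203). The transcription factor CEBPB and the secreted STC2 also fell, by 0.32 and 0.19 on the log2 scale (edgeR adjusted p = 0.00141 and 0.00355). Yet 6 of the 13 had a positive log2 fold change. ATF4 itself (0.01), ASNS (0.02), DDIT3 (-0.04) and TRIB3 (0.21), named here outside the rule for naming genes, did not pass the threshold. All 4 called genes fell, while the list as a whole held both signs. Of 15 p53-induced genes, XPC, a DNA damage sensor, rose from 97.3 to 127 CPM (edgeR adjusted p = 1.03e-05), while TIGAR and TP53INP1 fell (edgeR adjusted p = 0.0202 and 0.0475), and the median was -0.01. These 3 calls are 20% of the list, against 12.8% of all genes. Other genes share 30.4% of the exonic bases of XPC and 45.6% of those of TIGAR. The counts of XPC and TIGAR may therefore include reads of other genes. The TIGAR call was lost when siNC replicate 1 or 2 or siTRAIP replicate 1 was left out (adjusted p from 0.0789 to 0.109). TP53INP1 was lost without any 1 library but siTRAIP replicate 3 (0.0524 to 0.238), with DESeq2 (0.0862), with non-robust fitting (0.066) and on the RPKM scales (0.131 and 0.123).

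Of 12 tested genes in a glucocorticoid list, a programme that also induces DDIT4 and SGK1, 2 rose and 1 fell, or 25% against 12.8% of all genes. FKBP5, a chaperone of the receptor, rose from 49.7 to 57.4 CPM (edgeR adjusted p = 0.00476) and NR3C1, which encodes the receptor and is no standard induced target, from 41.7 to 48.2 CPM (edgeR adjusted p = 0.00318). NFKBIA, the inhibitor of NF-kappaB, fell from 82.8 to 70.1 CPM (edgeR adjusted p = 8.34e-04). With limma on the RPKM scales only 1 gene of this list, NFKBIA, was called. In the FOXO list of 11 genes 3 were called (27.3%, against 12.8% of all genes). TXNIP, an inhibitor of glucose uptake, rose from 28.6 to 34.1 CPM (edgeR adjusted p = 0.00191), and FOXO1 and FOXO3 fell (edgeR adjusted p = 0.0285 and 0.0428), FOXO1 at about 1.02 CPM in siNC. FOXO3 missed the threshold when siNC replicate 1 or 2 or siTRAIP replicate 1 or 2 was left out (adjusted p from 0.0716 to 0.172), with DESeq2 (0.073), with a replicate block (0.0635) and on the RPKM scales (0.0668 and 0.0657). FOXO1 missed it without siNC replicate 1 (0.141), siNC replicate 3 (0.062) or siTRAIP replicate 1 (0.102), and on the RPKM scales (0.0661 and 0.0702). DDIT4L, the paralog of DDIT4, went from 0.812 to 0.833 CPM (log2 fold change 0.03, SE 0.23, edgeR adjusted p = 0.96).

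**Figure D4:**
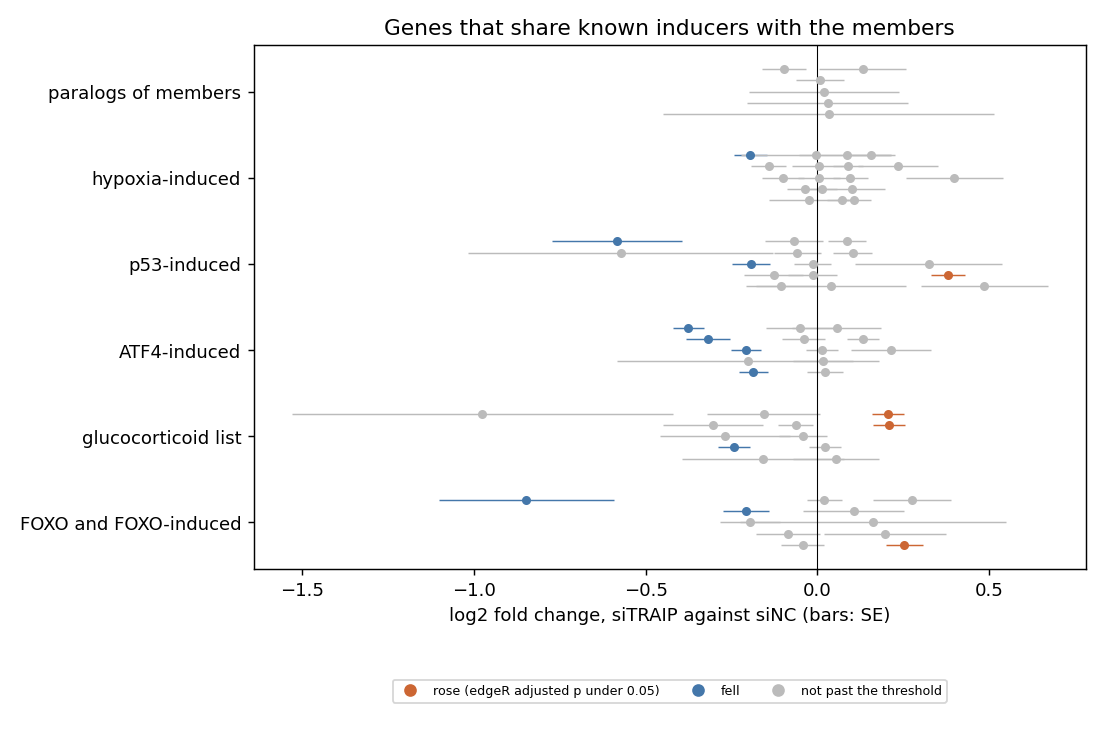
Log2 fold change of siTRAIP against siNC (horizontal axis, bars the SE) for the paralogs and for the hypoxia, p53, ATF4, glucocorticoid and FOXO lists, coloured by call at an edgeR adjusted p of 0.05. In the ATF4 list 4 of 13 genes fell, and in the hypoxia list 1 of 18.

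The genes whose pattern over the 6 libraries was most like that of DDIT4, by Pearson's r of log2 CPM among 8663 genes of at least 10 CPM, were ZDHHC7 (r = 0.998), AOX1, FOPNL, PERP and MSL1 (r = 0.9955). For NDRG1 they were OGFR (r = 0.998), PSMC3, ZC3H18, TUFT1 and ZNF629 (r = 0.996). These coefficients are carried by the difference between the groups and are a description of 6 libraries. All 10 of these genes stood higher in siTRAIP, PERP by 0.53 and OGFR by 0.74 on the log2 scale. DDIT4 and NDRG1 had r = 0.968 with each other, and DDIT4 and TSC1 had r = -0.98.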

How the data were processed

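RNA of 3 siNC and 3 siTRAIP libraries of T24 cells was sequenced from a stranded mRNA kit, per the labels' protocols. The authors trimmed reads with Trimmomatic 0.36 and counted them with featureCounts of Subread 1.5.1 on GRCh38, per the submitters' processing notes; no aligner or strand setting is named there. The deposited table gives raw read counts per gene, and the deposited RPKM values equal those recomputed from its counts and exonic lengths within a relative difference of 1.3e-06. Of 33542 genes, 26 had names turned into dates.

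Counts were tested with edgeR 4.0.16 in R 4.3.3 (filterByExpr, TMM, quasi-likelihood F-test with robust fitting, 2-sided, Benjamini-Hochberg over 18685 genes, threshold 0.05), after a check on simulated data. The SE of an edgeR log2 fold change is its absolute value divided by the square root of its F statistic. The common biological coefficient of variation was 5.7%. CPM values use the TMM factors. Total counts of 39111793 to 70439496 make counting error small except for genes of few counts. The 10 genes and all lists were chosen with earlier results of these data known, so the 10 genes have no p-value. Named beside them were TRAIP, 7 direct partners, up to 4 called genes of each list by adjusted p with up to 2 in the other direction, and the 5 genes most like DDIT4 and NDRG1 (log2 CPM with a prior count of 2); 1 gene that this rule names is not reported here. Of the programme lists, HILPDA, ATF4, ASNS, DDIT3 and TRIB3 were named outside this rule. Older symbols GATSL3 and GATSL2 stood for CASTOR1 and CASTOR2. Alternatives were DESeq2 1.42.0, other factors and filters, a replicate block, limma 3.58.1 on log2(RPKM + 0.1) and log2(RPKM + 1), and each library left out. Gene overlaps come from GENCODE v29 and promoters from RefSeq (GRCh38.p14).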

Additional observations from a re-analysis of the deposited data

How the results depend on the processing

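TRAIP passed the threshold in all 15 alternatives (log2 fold change -1.21 to -0.991). The 2393 changed genes became 1520 and 1519 with limma on log2(RPKM + 0.1) and log2(RPKM + 1), and 1480 (without siNC replicate 1) to 2622 (without siTRAIP replicate 3) with a library left out. Of these, 1396 rose; the number was 838 without scaling factors, 461 and 450 on the RPKM scales, and 878 to 1471 with a library left out. The 997 that fell became 2050 without scaling factors and 602 to 1151 with a library left out. Over all genes the median moved to -0.062 (log2) with total library size and to -0.058 and -0.032 on the RPKM scales. The 12 pathway genes became 5 and 5 on the RPKM scales and 8 to 16 with a library left out. DDIT4 was 0.526 and 0.495 on the RPKM scales; NDRG1 was 0.545 without factors and 0.527 and 0.389 on RPKM; SESN3 was -0.306 and -0.0486 on RPKM; TSC1 was -0.357 without factors; TSC2 was -0.114 without factors and -0.111 and -0.0953 on RPKM; SGK1 was -0.089 on log2(RPKM + 1). MTOR was -0.0254 without factors and -0.0244 and -0.0217 on RPKM. A pseudocount of 1 shrinks genes of low RPKM by construction. The deposited RPKM values, like the run without factors, carry no TMM factor. For the other differences the cause was not tested. With a library left out DDIT4 ran from 0.555 to 0.638, NDRG1 from 0.583 to 0.641, TSC1 from -0.332 to -0.267 and SGK1 from -0.313 to -0.187. Among values of 32 other named genes, 400 of 476 kept direction and call, 64 lost the call and 12 changed sign. The last were in genes without a call: RICTOR (0.0284 without siNC replicate 2, 0.0231 without siTRAIP replicate 2), RHEB (-0.021 without factors, -0.0275 and -0.0258 on RPKM, -0.0261 without siNC replicate 1, -0.0513 without siTRAIP replicate 3) and DDIT4L (-0.0288, -0.0175 and -0.00509 in the same order, -0.0102 without siNC replicate 1, -0.0162 without siTRAIP replicate 1). With a library left out, RICTOR ran from -0.0394 to 0.0284, RHEB from -0.0513 to 0.0993 and DDIT4L from -0.0162 to 0.0616. Same-numbered replicates did not deviate together (r = -0.0076, -0.018 and 0.0014). This does not settle whether they were handled together, which the labels do not say. With a replicate block 2145 genes changed (1279 rose, 866 fell), with 14 in the pathway lists. DDIT4 then stood at 0.591 and NDRG1 at 0.606. Depth limits SESN3 and DEPTOR, at 20 to 80 counts per library.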

Other observations

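An earlier look at these fold changes singled out short words in transcripts, so their pattern here is not independent of them. The words TCGGAGA and CGGAGAA were searched from the start codon to the transcript's end. Genes with either (18.9% of 12607 genes) had a median log2 fold change of 0.04, against -0.01 for genes without. The median was 0.03 with 1 site, 0.08 with 2 and 0.13 with 3 or more (77 genes). Genes with ACAGTCT or CAGTCTA (26.5%) had a median of -0.01, against 0.002 without, and here the median did not fall steadily with the number of sites (-0.009 with 1, -0.03 with 2, -0.02 with 3 or more). TSC1 holds 5 sites of this second pair, and 0.182% of genes hold at least as many, and SESN3 holds 2 (at least as many in 6.55% of genes). The searched stretch was 8382 bases in TSC1 and 9221 in SESN3, against 1547 in DDIT4 and 2892 in NDRG1. Neither the shares of genes nor the medians by site number were adjusted for this length. SESN2 holds 2 sites of the first pair (at least as many in 3.2% of genes), and its groups overlapped. DDIT4, NDRG1, SESN1, TSC2, DEPTOR, SGK1 and TBC1D7 hold neither pair, and MTOR holds 1 site of each pair. The part of these words in any of the values was not tested.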
